A study of Mus musculus with 2 samples.

Results

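The interleukin-1 family genes Il1rn, Il1a, Il1b, Il18, Il33, Il1r1, Il1r2, Il1rl1, Il1rap and Il18bp were followed in sorted mouse bone marrow stromal cells. These 10 genes were chosen by name, and all were found by symbol among the 35275 Ensembl identifiers of the deposited count table. The cells were mesenchymal stem/progenitor cells (MSPC), stromal cells of the marrow that can give rise to bone, cartilage and fat. They came from C57BL/6 mice that carried the Nestin-Cre transgene and were either Ptpn11+/+ (wild-type for Ptpn11, the controls) or Ptpn11E76K/+ (mutant), so both groups share the Cre. Ptpn11 encodes the phosphatase SHP2, and the mutant allele is an activating one. Nestin-Cre acts where the Nestin promoter is active, and the labels read here give neither the age nor the number of the mice. The sort took cells that lacked CD45, Ter-119 and CD31 and carried CD140 and Sca-1. The question addressed here is how these cells, with a mutated or a normal Ptpn11 allele, differ in the transcripts of this cytokine family.

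Interleukin-1 alpha and beta act through the receptor chain IL1R1, which recruits the shared chain IL1RAP and then the adaptor MYD88 and IRAK kinases, and this leads to NF-kB and MAP kinase activity. The family holds its own brakes: the receptor antagonist (Il1rn) occupies IL1R1 without signalling, IL1R2 is a decoy receptor, and IL-18 binding protein (Il18bp) captures IL-18. IL-33 signals through ST2 (Il1rl1) with IL1RAP, and IL-18 through its own receptor pair. In marrow, stromal cells are known as a target of IL-1, which makes them release factors that act on blood-forming cells.

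Counts summed to 22328659 in the wild-type library and to 18010963 in the mutant one. There is 1 library per genotype, so each difference below is one between libraries, has no replicate check and carries no p-value. Levels are in CPM (counts relative to the size of the library) after TMM scaling of the library totals, and ratios are mutant over wild-type with a 95% exact counting interval, which covers counting error only. A gene with at least 20 counts over both libraries was taken as measured, and a call, higher or lower, required an interval that lay wholly beyond 2-fold. Ptpn11 had 5958 counts in the wild-type and 5039 in the mutant library, a ratio of 1.12 (1.08 to 1.17), and gene counts do not tell its alleles apart. The stromal genes Pdgfra (2073 and 1792 counts), Pdgfrb (6075 and 3721) and Ly6a (2177 and 612), which encodes Sca-1, were present in both libraries, whereas Lepr had 7 and 4 counts. Of 12 stromal markers 11 were measured, with 2 called higher and 3 lower, beside 6.98% and 8.29% over all measured genes. Ly6a, one of the genes the sort relied on, was 2.67-fold lower in the mutant library (2.44 to 2.93), Cxcl12 3.39-fold lower (3.23 to 3.55) and Prrx1 2.75-fold lower (2.59 to 2.92). Nes was 2.76-fold higher (2.67 to 2.86) and Thy1 2.57-fold higher (2.17 to 3.06), but Thy1 was not called with library totals without the 20 most abundant genes or once trends over length and GC content were removed. Of the genes behind the negative sort, Ptprc (CD45) had 1 and 12 counts and Pecam1 (CD31) had 5 and 2. In the bulk RNA, more cells of a type and more RNA per cell cannot be told apart.

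Of the 10 family genes, 6 were measured (Il1rn, Il18, Il18bp, Il1r1, Il1rl1 and Il1rap) and 4 stayed below 20 counts (Il1a, Il1b, Il33 and Il1r2). Il1rn was called higher in the mutant library and Il18 was called lower, while the other 4 measured genes were not called. Over all 13142 measured genes, 6.98% were called higher and 8.29% lower, and 1 gene of 6 in each direction is too few to be read against these shares. Il1rn passed the minimum by its mutant counts alone, which fixed its direction in advance.

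The promoters of Il1rn and Il18 are shown because these are the family genes whose libraries differed by the call. The RefSeq promoter table (GRCm38.p6) lists 3 starts for Il1rn, of which the second and the third lie close together, and 1 start for Il18. Alternative first exons of Il1rn are known to give secreted and intracellular forms of the antagonist, and the counts per gene do not separate them. Each window holds the 250 bases before a start, 5′ to 3′ on the plus strand, and capitals mark a match to the AP-1 motif TGANTCA. The first Il1rn window lies at chr2:24336610-24336859, the second at chr2:24345041-24345290, and the Il18 window at chr9:50554450-50554699.
Il1rn, first start: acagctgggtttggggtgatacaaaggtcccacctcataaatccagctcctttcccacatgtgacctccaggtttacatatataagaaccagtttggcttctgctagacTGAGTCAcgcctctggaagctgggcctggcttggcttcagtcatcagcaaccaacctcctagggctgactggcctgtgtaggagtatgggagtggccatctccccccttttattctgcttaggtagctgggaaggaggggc
Il1rn, second start: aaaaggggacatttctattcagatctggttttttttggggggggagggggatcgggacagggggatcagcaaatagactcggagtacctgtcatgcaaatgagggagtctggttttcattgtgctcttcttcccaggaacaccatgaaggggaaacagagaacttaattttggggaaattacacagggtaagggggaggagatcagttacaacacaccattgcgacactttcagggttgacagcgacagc
Il18: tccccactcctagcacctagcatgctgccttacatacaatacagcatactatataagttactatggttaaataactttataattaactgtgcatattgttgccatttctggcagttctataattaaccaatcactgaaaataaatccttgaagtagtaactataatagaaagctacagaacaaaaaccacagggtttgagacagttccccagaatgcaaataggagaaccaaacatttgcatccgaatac
The first Il1rn window held 1 AP-1 match, 141 to 135 bases before the start. Such a match was present in 6.75% of the 32817 promoter windows of this length. No match to the motifs searched for PU.1 (GAGGAA), ETS factors (CCGGAA), STAT factors (TTCNNNGAA), the interferon response element (GAAANNGAA) or NF-kB was found in any of these windows, on either strand. The shares of all windows with such a match were 23.3% for PU.1, 12.0% for ETS, 7.01% for STAT, 7.12% for the interferon element and 7.25% for NF-kB. The windows of the other family genes, not shown, were searched as well. Il1a, with 2 counts in each library, held an AP-1 match 12 to 6 bases before the start and a PU.1 match. Il1r1 held an NF-kB match and Il1r2 a STAT match. These letters describe the windows and do not show binding.

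Among the ligands, the transcripts of both IL-1 agonists were close to absent in both libraries. Il1a, which encodes IL-1 alpha, had 2 counts in each library, and Il1b, which encodes IL-1 beta, had 0 in the wild-type and 1 in the mutant. With 3 counts as the limit that a count of 0 allows, levels of up to 0.13 CPM (wild-type) and 0.173 CPM (mutant) could go unseen. Part of the exons of Il1a overlaps Gm14023 on the other strand (11.2% of the exon bases), which had 9 and 3 counts, and whether the counting used strand is not stated. Il33, an alarmin stored in the nucleus, had 0 and 4 counts. For these 3 ligands no difference between the libraries was detectable at this depth.

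Il1rn, the gene of the receptor antagonist, stood apart from the ligands it opposes. It had 12 counts (0.519 CPM, 95% exact Poisson interval 0.268 to 0.906) in the wild-type library and 381 (21.9 CPM, 19.8 to 24.2) in the mutant library. The intervals of the libraries were far apart, and the ratio was 42.2 (23.9 to 82.5). Of the 13142 measured genes, 43 had a higher log2 ratio than Il1rn. Since Il1rn was measured through its mutant counts alone, its direction was fixed, and this place adds no separate support. The ratio lay between 38.5 and 45.0 under the scalings and trend corrections tried. In the mutant library Il1rn had 381 counts against a sum of 3 for Il1a and Il1b, and in the wild-type library 12 against 2.

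Il18, whose product is released after cleavage by caspase-1 and induces interferon gamma in lymphocytes, went the other way. It had 142 counts (6.14 CPM, 5.17 to 7.24) in the wild-type and 23 (1.32 CPM, 0.839 to 1.99) in the mutant library. The level was 4.64-fold lower in the mutant library (2.97 to 7.56), and between 4.63-fold and 5.1-fold lower under the scalings and trend corrections tried. Il18bp, the gene of its soluble inhibitor, had 52 and 38 counts, which are 2.25 CPM (1.68 to 2.95) and 2.19 CPM (1.55 to 3.0). These intervals overlapped, and the ratio was 0.972 (0.622 to 1.51), so that a difference inside that range was not detectable at this depth. A small part of the Il18bp exons (2.6% of the exon bases) overlaps the abundant gene Numa1 (5162 and 3111 counts) on the other strand, and reads of that stretch may be counted for either gene.

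**Figure D1:**
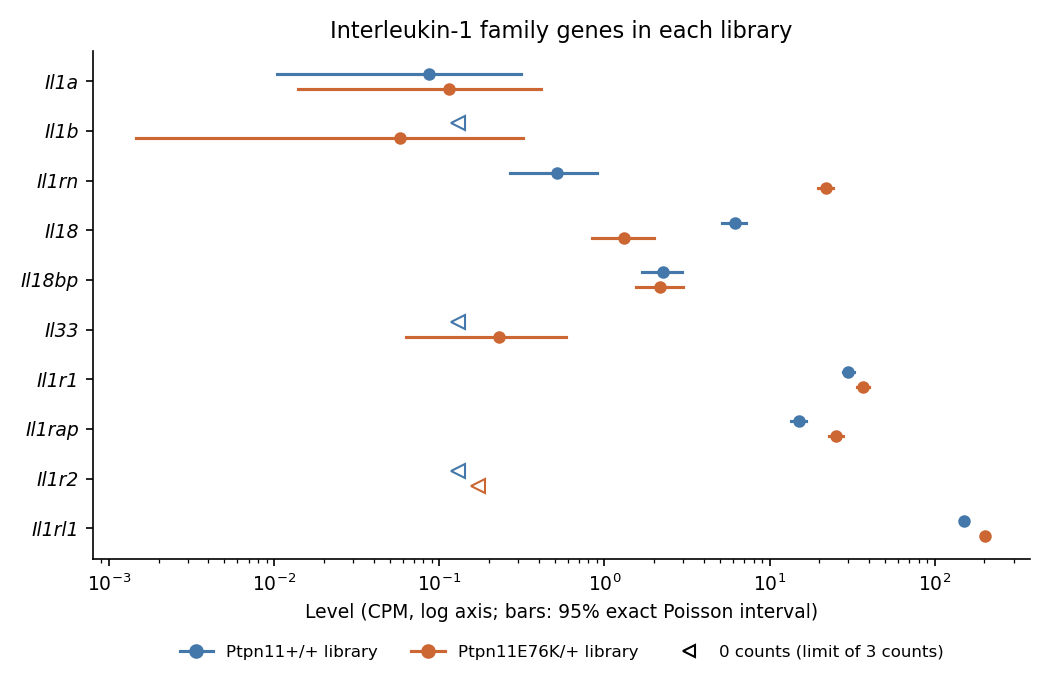
Level of each family gene in CPM on a log axis, with bars for the 95% exact Poisson interval of the count in the Ptpn11+/+ (blue) and the Ptpn11E76K/+ library (orange), and open triangles at the limit of 3 counts where a library had 0. Il1rn (0.519 and 21.9 CPM) and Il18 (6.14 and 1.32 CPM) have intervals far apart in opposite directions, and Il1a, Il1b, Il33 and Il1r2 lie below 1 CPM.

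The receptors were present in both libraries, apart from the decoy. Il1rl1, the gene of the IL-33 receptor ST2, had 3477 counts in the wild-type (150.3 CPM, 145 to 155) and 3496 in the mutant library (201 CPM, 194 to 208). The intervals did not overlap, and the ratio of 1.34 (1.28 to 1.4) was short of the 2-fold threshold. The same gene also gives a soluble, decoy form of ST2, which counts per gene do not separate from the membrane form. Il1r1, the signalling receptor of IL-1, had 693 and 640 counts, which are 29.96 CPM (27.8 to 32.3) and 36.8 CPM (34.0 to 39.8). Its ratio was 1.23 (1.1 to 1.37). Il1rap, the chain shared by the IL-1 and IL-33 receptors, had 348 and 440 counts, or 15.1 CPM (13.5 to 16.7) and 25.3 CPM (23.0 to 27.8). Its ratio of 1.68 (1.46 to 1.94) was the highest of these 3 receptor genes, and their whole intervals lay above 1 under each scaling and trend correction tried. The lowest ratios came from library totals without the 20 most abundant genes (1.12 for Il1r1, 1.22 for Il1rl1 and 1.53 for Il1rap). The highest came after removal of trends in the ratio over transcript length and GC (1.5, 1.61 and 1.98). Il1r2, the decoy receptor gene, had 0 counts in both libraries.

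**Figure D2:**
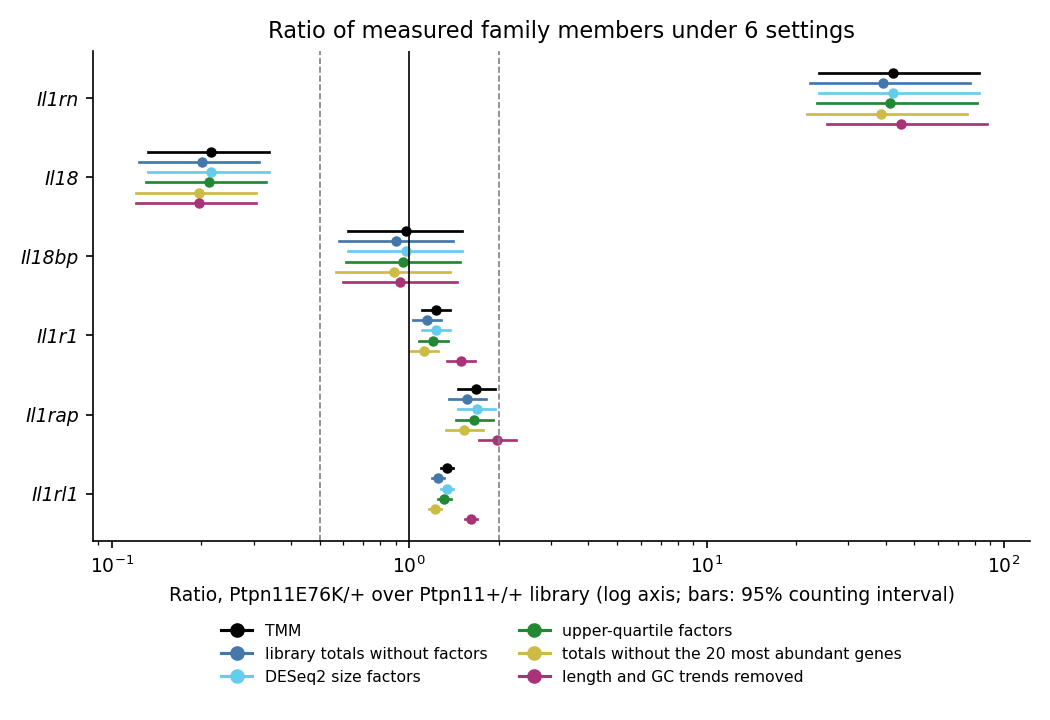
Ratio of the mutant to the wild-type library for the 6 measured family genes on a log axis, with 95% counting intervals, under TMM scaling and 5 other settings (colours). Dashed lines mark 2-fold in either direction; under each setting the interval of Il1rn lies above 2-fold and that of Il18 below it, and those of Il18bp cross 1.

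Per transcript length, Il1rl1 led the family in both libraries. Levels per length are counts per kilobase of the longest transcript, scaled to a common sum within each library (TPM), and serve only to rank genes inside a library. In the wild-type library Il1rl1 was at 84.3 TPM (81.5 to 87.1), followed by Il18 at 20.6 (17.4 to 24.3), Il1r1 at 15.3 (14.2 to 16.5), Il1rap at 9.89 (8.88 to 11) and Il18bp at 2.57 (1.92 to 3.38). Il1rn was at 0.604 TPM (0.312 to 1.05). No neighbours in this order had overlapping intervals down to Il1rn. The 4 lowest genes could not be ranked, and the interval of Il1a (0.0158 to 0.47 TPM) overlapped that of Il1rn. In the mutant library Il1rl1 was at 92.5 TPM (89.5 to 95.7), Il1rn at 20.9 (18.9 to 23.2), Il1r1 at 15.4 (14.3 to 16.7) and Il1rap at 13.7 (12.4 to 15.0). The intervals of Il1r1 and Il1rap overlapped there, as did those of Il18 at 3.65 TPM (2.31 to 5.47) and Il18bp at 2.05 (1.45 to 2.82). Il1rn was thus in the sixth place in the wild-type and in the second in the mutant library (the third, behind Il1r1, with the union of exons), and Il18 in the second and the fifth.

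The ratios between family genes within a library come from the same counts, so they restate the differences above and add no separate evidence. Il1rn stood at 0.0394 of the level of Il1r1 per length in the wild-type library (0.0203 to 0.0694) and at 1.36 of it in the mutant library (1.19 to 1.54). Il18bp stood at 0.125 of the level of Il18 in the wild-type (0.0891 to 0.173) and at 0.563 in the mutant library (0.327 to 0.99). Il1rl1 exceeded Il1rap 8.52-fold in the wild-type (7.63 to 9.54) and 6.77-fold in the mutant library (6.13 to 7.5). With the union of exons in place of the longest transcript, Il1rn was at 12.9 TPM in the mutant library, below Il1r1 at 18.9. Il1rap was then at 5.22 and 7.28 TPM in wild-type and mutant, and Il1rl1 at 86.0 and 95.3. Il1r1 was at 18.57 TPM in the wild-type library by this measure. Il1rap thus lay further below both Il1rl1 and Il1r1 in each library. These absolute levels, and the ratios between genes within a library, depend on the length used.

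**Figure D3:**
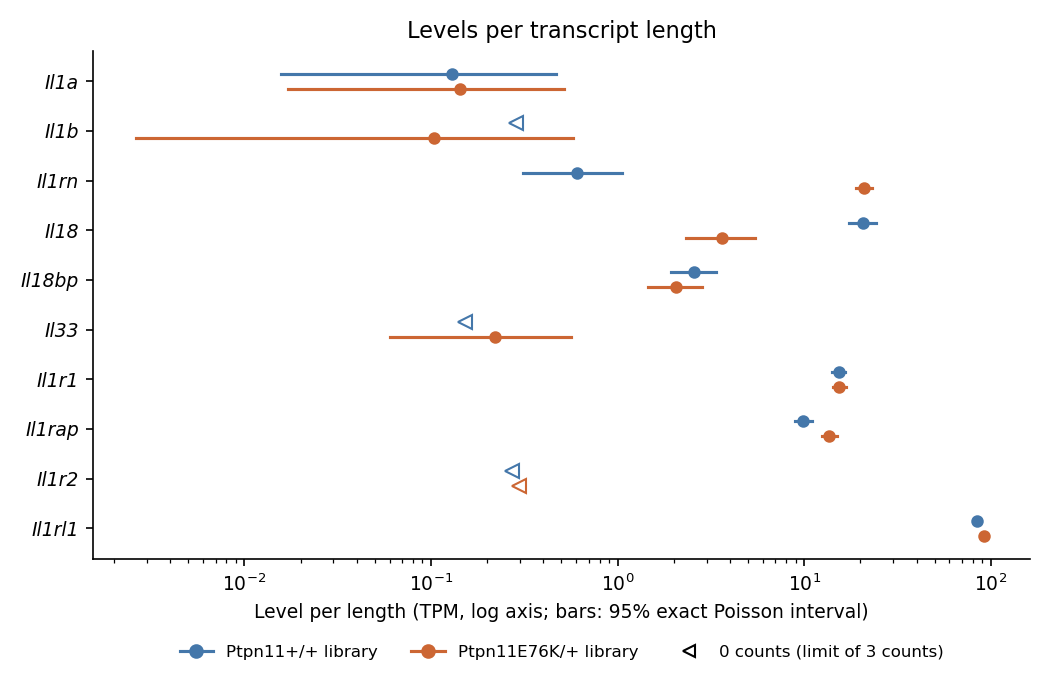
Level per transcript length (TPM, log axis) of each family gene within each library, with 95% exact Poisson intervals and open triangles at the limit of 3 counts for a count of 0. Il1rl1 is the highest in both libraries (84.3 and 92.5 TPM), and Il1rn and Il18 exchange their order.

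The remaining family genes were mostly silent. Of the ligand genes Il1f5, Il1f6, Il1f8, Il1f9 and Il1f10, which belong to the IL-36 and IL-38 branch, 0 of 5 were measured, and Il1f9 was the only one with any counts (7 and 1). Of 6 other receptor genes only Il18rap was measured. Il18rap, which encodes the accessory chain of the IL-18 receptor, had 160 and 117 counts, a ratio of 0.973 (0.76 to 1.24). Il18r1, which encodes the chain that binds IL-18, had 7 and 0 counts. Sigirr, an inhibitory family receptor, had 1 and 5.

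Downstream of the receptors, 19 of 20 signalling genes were measured, of which 1 was called higher, 2 lower and 16 not called. Their median log2 ratio was -0.16, against 0.006 over all measured genes. Of all measured genes, 6.98% were called higher and 8.29% lower. Myd88, the shared adaptor gene, had 366 and 290 counts (ratio 1.05, 0.9 to 1.23), and the kinase gene Irak4 445 and 403 (1.21, 1.05 to 1.38). On the other strand, Myd88 shares 11.3% of its exon bases with Acaa1a (1324 and 692 counts). Irak4 likewise shares 7.9% with Twf1 (2269 and 2354 counts). Peli2, which encodes a ubiquitin ligase that acts on IRAK proteins, had 72 and 163 counts and was 3.01-fold higher (2.27 to 4.03). Irak1, an IRAK kinase gene, went from 4264 to 1437 counts, 2.23-fold lower in the mutant library (2.1 to 2.37). Ikbkg, the gene of the IKK subunit NEMO, showed 7021 against 1813 counts, 2.91-fold lower (2.76 to 3.07). It shares 5.2% of its exon bases with G6pdx on the other strand. Tab3 counted 726 and 254, with a ratio of 0.465 (0.402 to 0.538). It was not called, and it was called lower with library totals without the 20 most abundant genes (2.36-fold). Irak1, Ikbkg and Tab3 are the 3 measured genes of this list on chromosome X. The 431 measured genes of that chromosome had a median log2 ratio of -1.15, with 45.9% called lower, against 0.03 and 6.99% for the autosomes. The other 16 signalling genes had a median of 0.03. The part of this chromosome-wide difference in the values of Irak1 and Ikbkg was not tested.

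Of 18 genes for processing and release of the ligands, 7 were measured, 1 was called higher and 0 lower, with a median log2 ratio of 0.18. The shares over all measured genes were 6.98% higher and 8.29% lower, and 1 call of 7 is too few to read against them. Several inflammasome genes had few counts: Casp1, whose product cleaves pro-IL-1 beta and pro-IL-18, had 0 and 5, Nlrp3 1 and 2, Pycard 8 and 5, and Nlrc4 0 and 1. Nek7, whose product binds NLRP3, had 2546 and 1873 counts (ratio 0.979, 0.921 to 1.04), and the caspase gene Casp4 had 173 and 152 (1.17, 0.934 to 1.46). Neither Nek7 nor Casp4 was called. Gsdmd, the gene of the pore-forming protein gasdermin D, had 6 and 54 counts and was 12-fold higher in the mutant library (5.16 to 34.1). It reached the minimum only through that library, and it lies on chromosome 15, whose 501 measured genes had a median log2 ratio of 0.56. Capn2, which encodes a calpain (a class of protease that cleaves pro-IL-1 alpha), was abundant, with 10854 and 14106 counts and a ratio of 1.73 (1.69 to 1.77). The ATP receptor gene P2rx7 had 990 and 474 counts, a ratio of 0.637 (0.57 to 0.711). Neither passed the 2-fold threshold.

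Among 28 genes known to respond to IL-1 in stromal cells, 20 were measured, with 6 called higher, 0 lower and 14 not called, where 6.98% of all measured genes were called higher and 8.29% lower. The median log2 ratio was 0.67, and 0.54 with library totals without the 20 most abundant genes. This list was assembled with results of these data known, so its direction is not independent evidence. Ptgs2, the gene of the prostaglandin synthase COX-2, had 390 and 3949 counts and was 13.5-fold higher (12.1 to 15). Lif was 8.16-fold higher (5.77 to 11.8), the complement gene C3 7.28-fold (5.9 to 9.06) and the collagenase gene Mmp13 4.64-fold (3.43 to 6.39). Saa3 and Mmp3 were the others, at 3.55-fold and 2.82-fold. Cytokine genes of the list lay at very different levels. Il6 had 3 and 4 counts, Csf3 2 and 4, Csf2 0 and 1, and Cxcl2 2 and 1, while the chemokine genes Ccl2 and Ccl7 were well counted and not called. Ccl2 had 1002 and 773 counts (ratio 1.03, 0.933 to 1.13) and Ccl7 437 and 546 (1.66, 1.46 to 1.89). Nfkbia, an NF-kB feedback gene, had 569 and 932 counts with a ratio of 2.18 (1.96 to 2.42) and was not called, and Cxcl1 had 145 and 128. Icam1, at 114 and 31 counts and a ratio of 0.362 (0.235 to 0.542), was not called. Its call became lower once trends over length and GC content were removed (3.07-fold) and with library totals without the 20 most abundant genes (3.03-fold).

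**Figure D4:**
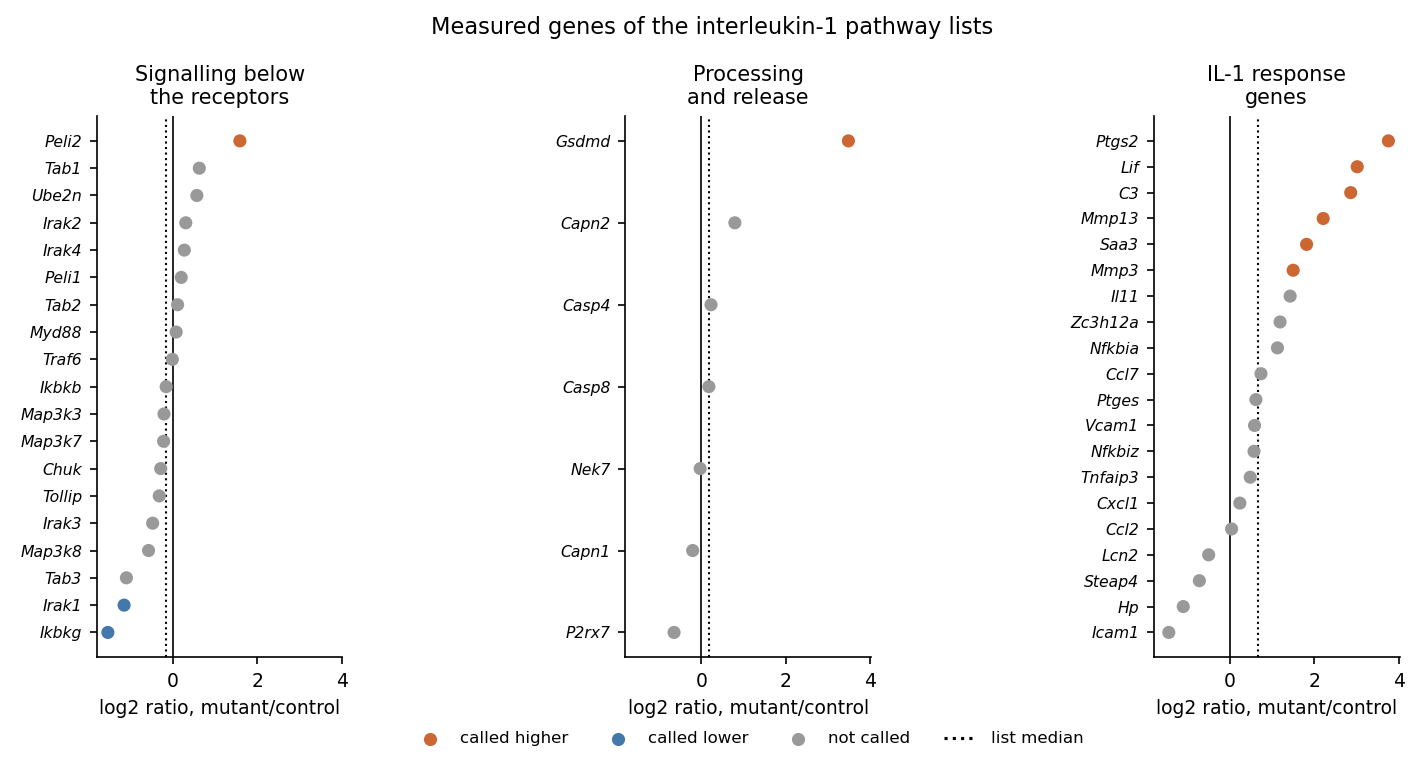
log2 ratio of the mutant to the wild-type library for each measured gene of 3 pathway lists, with calls in colour and the list median as a dotted line. Most signalling genes lie near 0 (median -0.16), while the response genes range from Icam1 at -1.45 to Ptgs2 at 3.75 (median 0.67).

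The mutant library, with its high Il1rn, also had higher levels of myeloid markers. Calls were made for 10 of the 13 measured genes among 22 myeloid markers, each of them higher and 0 lower, beside 6.98% and 8.29% over all measured genes. With a minimum of 50 counts, 3 were called. Of the 22, 10 reached 20 counts in the mutant library only, which fixed the direction of any call among them. Every called marker except Cd14 was one of these, so the calls cannot be read against the shares over all genes. Cd68 (40 and 79 counts) and Csf1r (149 and 229) passed the minimum in both libraries and were not called. Their ratios were 2.63 (1.774 to 3.945) and 2.04 (1.66 to 2.53), so both whole intervals lay above 1. Csf1r shares 15.1% of its exon bases with Hmgxb3 on the other strand (689 and 700 counts). Cd14 was not called with library totals, with totals without the 20 most abundant genes, without the length and GC trends or with a 99% interval. The summed level of the list was 15.1 CPM in the wild-type and 67.7 CPM in the mutant library, with 10 markers at 0 in the wild-type and 2 in the mutant. Lyz2 had 11 and 276 counts, a ratio of 33.4 (18.4 to 67.6). Itgb2 had 0 and 49, which is at least 21.7-fold higher at the limit of 3 counts (exact lower bound 17.0). Ctss had 0 and 34, at least 15.1-fold higher (exact lower bound 11.6), and Laptm5 0 and 31, at least 13.8-fold higher (exact lower bound 10.5). Below the minimum stayed 9 of the 22, among them Ptprc (1 and 12 counts), Adgre1 (0 and 7), Spi1 (1 and 4) and Mrc1 (5 and 4). Per transcript length, Lyz2 at 29.4 TPM lay above Il1rn at 20.9 TPM in the mutant library, and Cd14 at 20.3 TPM (17.8 to 23.0) overlapped it. With the union of exons, 2 of the 22 markers (Lyz2 and Cd14) lay above Il1rn there. In the wild-type library, 5 of the 22 lay above Il1rn at 0.604 TPM. Neutrophil markers were at or near 0, with 3 and 5 counts in all over 11 genes.

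The cornified envelope genes Lce1g, Sprr2h and Sprr1a, of a kind that marks differentiating keratinocytes, also had more counts in the mutant library. Of 14 epithelial and keratinocyte markers, a list chosen with results of these data known, 5 were measured, with 3 called higher and 0 lower. These calls cannot be read against the shares over all measured genes (6.98% higher and 8.29% lower). The 3 were Lce1g with 1 and 619 counts, Sprr2h with 0 and 99, and Sprr1a with 2 and 92, and each reached 20 counts in the mutant library alone, which set its direction. Krt10 (105 and 79 counts) and Sfn (151 and 141) were not called. The markers Krt5 (0 and 1), Krt14 (0 and 3), Ivl (0 and 3) and Lor (0 and 12) stayed below the minimum, and Epcam had 0 in both. Il1rn is known to be expressed by macrophages and keratinocytes as well as by stromal cells. The part of these other transcripts in the Il1rn value was not tested.

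**Figure D5:**
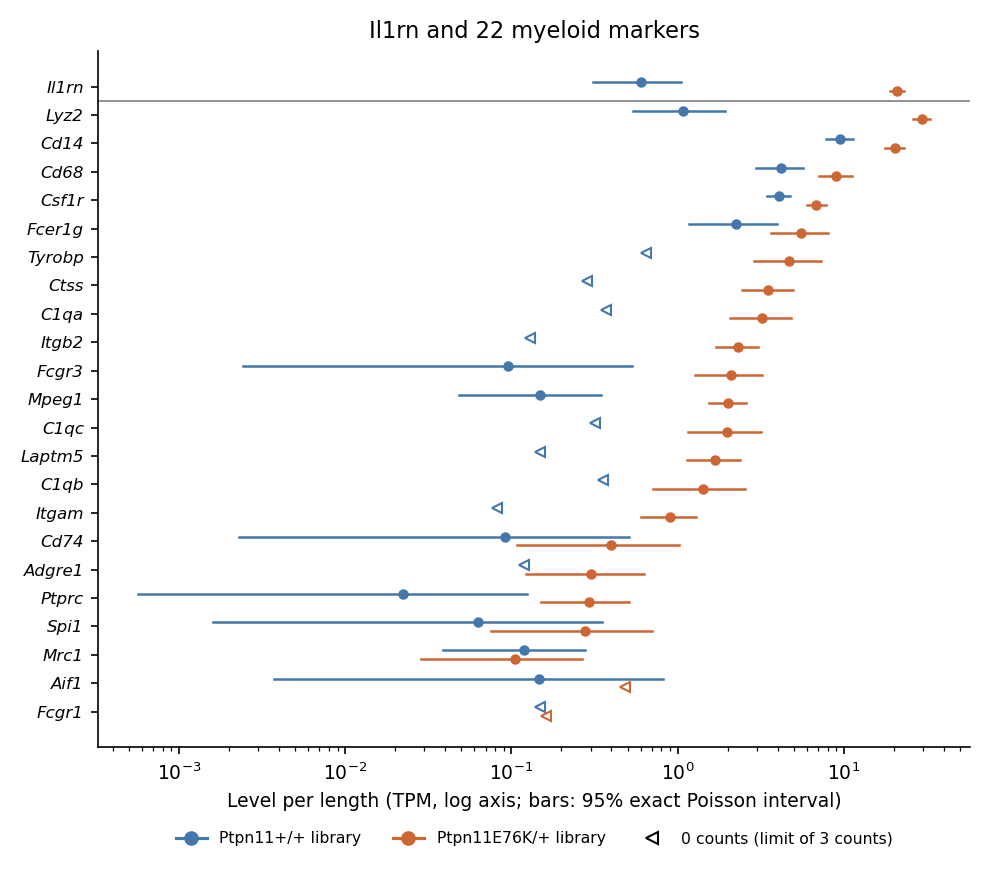
Level per transcript length (TPM, log axis) of Il1rn (top) and 22 myeloid markers within each library, with 95% exact Poisson intervals and open triangles at the limit of 3 counts for a count of 0. Most markers lie further right in the mutant library (orange), but levels per length serve only to rank genes inside a library. Within the mutant library Lyz2 (29.4 TPM) lies above Il1rn (20.9 TPM), and Cd14 (20.3 TPM) overlaps Il1rn.

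The measured genes with the pattern most like that of Il1rn over the 2 libraries, by Euclidean distance of log2 CPM, were C5ar1 (13 and 334 counts, distance 0.22), Tspan15 (13 and 332, 0.227) and Ildr2 (12 and 466, 0.29). Nearest to Il18 were Trim21 (141 and 23 counts, distance 0.0102), Ebf3 (148 and 23, 0.0595) and 2810408A11Rik (132 and 24, 0.121). With 2 libraries such likeness says only that the counts are of similar size.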

How the data were processed

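Polyadenylated RNA of sorted marrow MSPC was sequenced, and 1 library per genotype was deposited. The authors deposited raw read counts per Ensembl gene, which are whole numbers without normalization. The submitters' processing notes name CASAVA, TopHat, edgeR and mm9. Which counter, annotation release and strand setting were used is not stated there. Although 2 replicates are mentioned in the design text, the table has 1 column per genotype, and 0 sample columns were left unused. Whether a column pools replicates is not stated. Symbols were found for 34490 of 35275 identifiers. Transcript lengths, GC content, exon overlaps and chromosomes came from GENCODE M21, which is on another build than mm9. Promoter windows came from RefSeq (GRCm38.p6).

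TMM factors (edgeR 4.0.16, R 4.3.3) were applied to the totals and ratios given 95% exact Clopper-Pearson intervals (SciPy 1.17.1). No test between genotypes was run. log2 ratios used a prior count of 0.5 per library. Calls across all genes used a minimum of 20 counts. Intervals and limits for a count of 0 cover counting error only. Alternatives were other scalings (DESeq2 1.42.0 size factors among them), count minimums, thresholds, a 99% interval and lowess trends over length and GC content. The genes and lists were chosen with earlier results of these data known. All 10 family genes were named, then from each list genes that were called (up to 4 per direction by the planned rule) and defining genes near 0. Other list genes with values, and the chromosome comparison, were chosen after their values were seen. The marker lists for lymphoid, mast cell, endothelial and stromal cells are given where they bear on a result.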

Additional observations from a re-analysis of the deposited data

How the results depend on the processing

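No paired analysis was possible because there is 1 library per genotype, and for the same reason no replicate could be left out. Under 4 other scalings, the length and GC trends, 3 other count minimums and a 99% interval, 1 family gene was called higher and 1 lower. With the interval beyond no difference 4 were called higher, since Il1r1, Il1rl1 and Il1rap joined Il1rn, and beyond 4-fold 0 were called lower. Over all genes 2063 were called higher and 2046 lower beyond 1.5-fold, 223 and 265 beyond 4-fold, and 5201 and 4919 beyond no difference. Of the other ligand, receptor, signalling, processing and response genes, 0, 1, 19, 7 and 20 were measured. Together 8 were called higher and 2 lower (6.98% and 8.29% over all measured genes). Of the 8, 6 came from the response list, assembled with results of these data known. The 2 called lower, Irak1 and Ikbkg, lie on chromosome X, where 45.9% of measured genes were called lower. These counts are therefore not read against the shares over all genes. The higher calls were 4 beyond 4-fold and 24 beyond no difference. The lower calls were 4 with totals without the 20 most abundant genes, 4 beyond 1.5-fold, 0 beyond 4-fold and 13 beyond no difference. Leaving out the 20 most abundant genes shifted the median log2 ratio of all measured genes to -0.13. Depth limits Il1a, Il1b, Il33 and Il1r2, for which differences could not be seen.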

Other observations

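The log2 ratio of the libraries differed by chromosome. On chromosome X, the mutant library had 198 of 431 measured genes called lower and 3 called higher, at a median of -1.15. On chromosome 15, 91 of 501 were called higher (18.2%) and 17 lower (3.39%), with a median of 0.56. The medians of the other autosomes ran from -0.11 on chromosome 6 to 0.17 on chromosome 17. The family genes lie on chromosomes 1, 2, 7, 9, 16 and 19, whose medians ran from -0.095 to 0.102. The chromosome comparison was made after the values of Irak1, Ikbkg and Tab3 had been seen, and what underlies it was not tested.

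Mcpt8, a protease gene of mouse basophils, had 1 wild-type and 41 mutant counts, while the mast cell genes Cpa3, Tpsb2, Mcpt4 and Cma1 had 0 in both, Ms4a2 had 7 and 1, and Kit 0 and 1. Of 10 lymphoid and innate lymphoid markers 3 were measured, Thy1 and Gata3 (46 and 132 counts) called higher and Rora (1164 and 351 counts) lower. Stromal cells are known to express these as well. With 3 genes measured, the calls are too few to read against the 6.98% and 8.29% over all measured genes. Cd3e, Cd3g, Nkg7 and Gzma had 0 counts in both libraries. Thy1 lost its call when the 20 most abundant genes were dropped from the totals, and both Thy1 and Rora lost theirs once length and GC trends were removed. Of 9 endothelial markers 1 was measured, Vwf with 14 and 8 counts, and Kdr had 0 and 14.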
